A study of Mus musculus with 12 samples.

Results

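The genes of the matrix metalloproteases (Mmp), the ADAMTS proteases, the tissue inhibitors of metalloproteases (Timp) and the lysyl oxidases (Lox and Loxl) were taken from the expression table by their gene symbols alone, with no measured value used. They numbered 51 of the 35999 symbols in the table, with 23 Mmp, 19 Adamts, 4 Timp and 5 Lox genes. Of these 51, 43 had enough counts to be tested and 8 did not. RNA came from subcutaneous tumours of AB1-HA, a mesothelioma line of BALB/c origin made to express influenza haemagglutinin, grown in male BALB/c mice aged 8 to 10 weeks. The 6 anti-CD4 tumours came from mice given 100 µg of a monoclonal antibody against CD4, which depletes CD4 T cells, and the 6 PBS tumours from mice given PBS, both on days -3, 0 and 7 around inoculation, with tumours taken on day 9. Each library held the RNA of a whole tumour, host cells included, so fewer cells of a type and less RNA per cell cannot be told apart. The labels name no mouse for any tumour, so p-values measure the spread between these tumours.

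Mmp proteases are zinc enzymes that cut collagens and other matrix proteins, and most are made as inactive proenzymes. ADAMTS proteases carry the same kind of zinc site and cut proteoglycans or trim procollagens, while Timp proteins bind the zinc site and block it. Lysyl oxidases are copper enzymes that oxidise lysines of collagen and elastin, the first step of their cross-linking. In solid tumours fibroblasts and macrophages make many of these proteins.

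Library totals ran from 34.45 M to 62.06 M estimated counts in anti-CD4 tumours and from 30.75 M to 41.93 M in PBS tumours. Cd4, the antigen of the antibody, averaged 1.31 ± 0.498 CPM in anti-CD4 tumours and 6.31 ± 2.34 CPM in PBS tumours (SD, n = 6 each), where CPM are counts relative to the library total after TMM scaling. Msln, which encodes the mesothelial surface protein mesothelin, lay between 92.6 and 155.0 CPM in anti-CD4 tumours and between 94.72 and 140.0 CPM in PBS tumours. Of the other 4 mesothelial markers, Upk3b and Krt19 were too low to test.

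The zinc site is what the Mmp and Adamts families share, and its coding sequence is shown for the members on which the results turn. The stretch is 33 bases (11 codons) read 5′ to 3′ on the coding strand from GENCODE M21 transcripts on GRCm38. Capitals mark the codons of the 3 histidines that hold the zinc and of the glutamate beside the first of them.
Mmp25 (chr17:23632843-23632875, minus strand): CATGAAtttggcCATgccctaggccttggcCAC
Mmp14 (chr14:54437627-54437659, plus strand): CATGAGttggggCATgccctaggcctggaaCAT
Mmp9 (chr2:164951133-164951165, plus strand): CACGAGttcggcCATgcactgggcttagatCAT
Mmp2 (chr8:92839279-92839311, plus strand): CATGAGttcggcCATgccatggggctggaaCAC
Adamts1 (chr16:85799191-85799545, minus strand): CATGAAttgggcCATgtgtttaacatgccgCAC
Adamts4 (chr1:171253210-171253915, plus strand): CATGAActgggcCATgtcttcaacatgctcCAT
Adamts5 (chr16:85878015-85887826, minus strand): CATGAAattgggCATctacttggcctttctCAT
The search required the marked codons and accepted only a glycine or asparagine codon at codon 8. Such a stretch was found in the coding sequence of all 23 Mmp genes and of 18 of the 19 Adamts genes, all but Adamts8. A site with another residue at codon 8 would be missed, so Adamts8 is not shown to lack a zinc site. In the 23 Mmp genes the stretch lay within 1 exon. In the 18 Adamts genes an intron divided it, which is why the Adamts coordinates span more than 33 bases. Codon 8 was a glycine codon in all 23 Mmp genes and in 13 Adamts genes. It was an asparagine codon (aac or aat) in Adamts1, Adamts4, Adamts9, Adamts15 and Adamts20, which are 5 of the 7 Adamts genes that cleave hyalectan proteoglycans, and in 0 of the other 12. Adamts1 and Adamts4 shared 27 of the 33 bases, and Adamts1 and Adamts5, which lie 53.1 kb apart on the same strand of chromosome 16 with no protein-coding gene between them, shared 20.

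Levels per length were compared as TPM (transcript abundance scaled to the same total in every tumour), computed from the estimated counts over the summed length of all annotated exons of a gene. Timp2, an inhibitor that also takes part in the activation of Mmp2 at the cell surface, was the most abundant member at 651 TPM over the 12 tumours, rank 176 of all genes. Mmp14, the membrane-bound protease that activates Mmp2, followed at 335 TPM, Mmp9, a secreted gelatinase, at 331 TPM, and Loxl1, a lysyl oxidase that acts on elastin, at 266 TPM. Adamts1 led its family at 169 TPM. Of the 51 members, 32 averaged 1 TPM or more, and 19 less.

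Each family was dominated by 1 or 2 genes. Timp2 gave 80.9% of the Timp sum and Timp1 gave 16.4%, while Loxl1 gave 56.2% of the Lox sum and Loxl3 gave 22.5%. Mmp14 and Mmp9 gave 35.0% and 34.6% of the Mmp sum (46.5% and 27.8% with the longest coding transcript as length), and Adamts1 and Adamts5 gave 41.8% and 14.99% of the Adamts sum. Summed Mmp levels were 1019 ± 70.3 TPM in anti-CD4 tumours and 894 ± 150 TPM in PBS tumours (SD, n = 6 each, as for all values written this way). Adamts sums were 428 ± 47.7 TPM in anti-CD4 tumours and 382 ± 38.0 TPM in PBS tumours. Timp sums were 852 ± 63.0 TPM in anti-CD4 tumours and 756 ± 70.8 TPM in PBS tumours, and Lox sums were 495 ± 52.3 TPM in anti-CD4 tumours and 452 ± 45.9 TPM in PBS tumours. In all 4 families the mean was higher in anti-CD4 tumours and the groups overlapped, and no test was made of a sum. The ratio of the Mmp sum to the Timp sum was 1.20 ± 0.118 in anti-CD4 tumours and 1.20 ± 0.296 in PBS tumours.

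**Figure D1:**
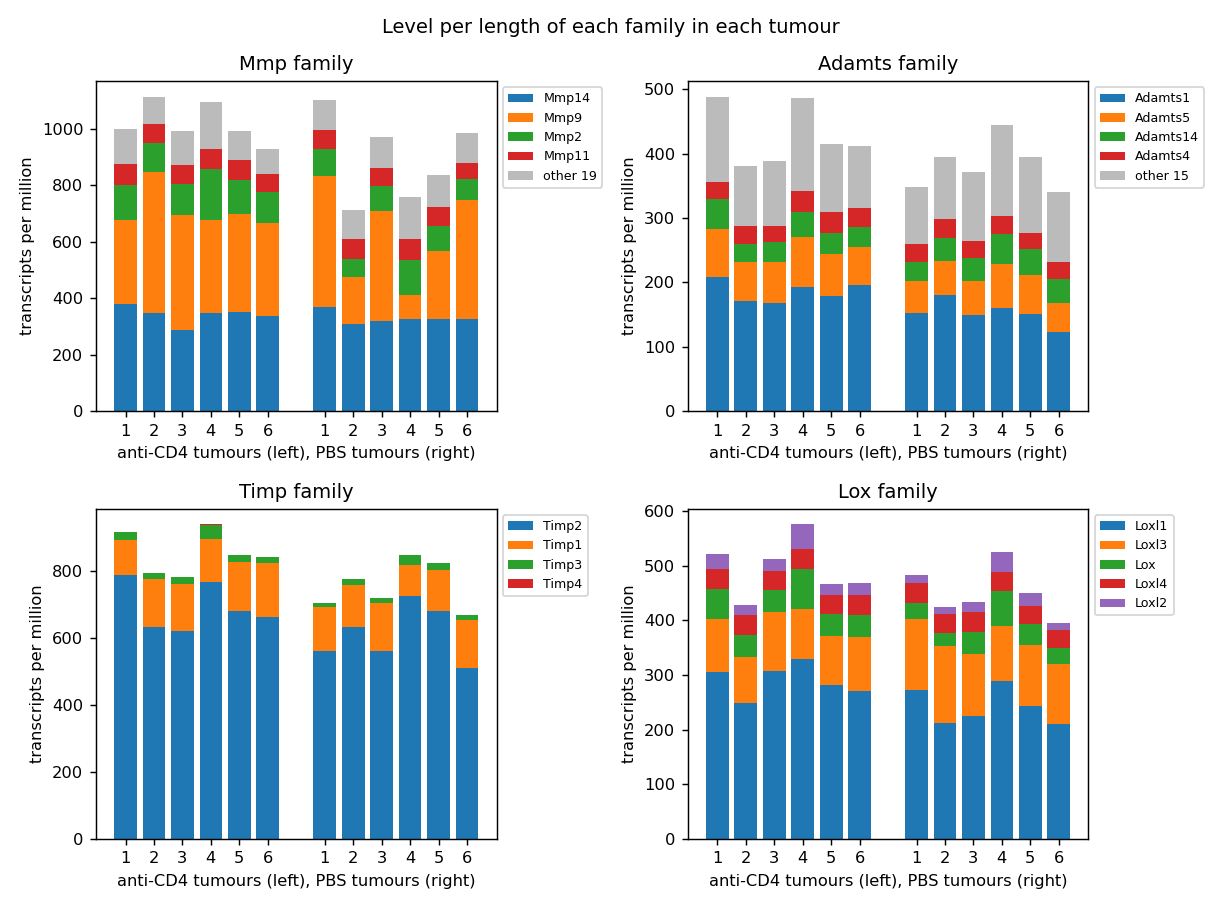
Summed level per length (TPM, from 0) of each family in each tumour, with the anti-CD4 tumours 1 to 6 on the left and the PBS tumours 1 to 6 on the right of each panel. Stacked colours are the leading genes of the family and grey the rest; the Mmp9 part varied most, from 10.98% of the Mmp sum in PBS 4 to 44.9% in anti-CD4 2.

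The comparison of the groups asked which of these genes differ in tumours grown after CD4 depletion. Of the 43 tested members, 3 rose in anti-CD4 tumours, Adamts1, Adamts5 and Loxl1, and 1 fell, Mmp25 (edgeR quasi-likelihood test, adjusted p under 0.05 over 17940 genes). Over all genes tested 2.95% rose and 2.33% fell, 5.28% in all, so that 4 called of 43 members is near the background for a set of this size. A positive log2 fold change was found for 26 of the 43 members, with a median of 0.14, against 49.9% of all genes and a median of 0.00. At an unadjusted p under 0.05 there were 8 members higher and 3 lower, against 28.0% of all genes in either direction. Every anti-CD4 tumour lay above every PBS tumour for 1 member, Adamts5, against 1.93% of all genes, and below for 1, Mmp25, against 1.19%.

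By family, 1 of 17 tested Mmp genes fell and 0 rose (median log2 fold change 0.11), and 2 of 17 tested Adamts genes rose and 0 fell (median -0.03). None of the 4 Timp genes was called by edgeR, with 1 higher at an unadjusted p under 0.05, and their median was 0.30. DESeq2 called 1 of them and limma voom 1. Among the 5 Lox genes 1 rose and 0 fell, and the median was 0.34. The 32 members at 1 TPM or more had 23 positive values and a median of 0.17. The calls depended on single tumours: 0 members rose without anti-CD4 2, 5 or 6 or PBS 3 or 6, 1 rose without anti-CD4 4 or PBS 2 or 5, and 5 rose without PBS 1. No member fell without anti-CD4 2, 5 or 6 or PBS 2, 3 or 6 (edgeR adjusted p of Mmp25 0.0505 to 0.0755). TMM scaling gave 55.9% of all called genes as higher. Upper quartile scaling gave 35.5%, and under it 0 members rose and Mmp25 fell. When library totals were added as a covariate, the 4 members kept their directions and none was called (edgeR adjusted p 0.276 for Mmp25, 0.338 for Adamts1, 0.199 for Adamts5 and 0.276 for Loxl1, with 2193 genes at an unadjusted p under 0.05).

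**Figure D2:**
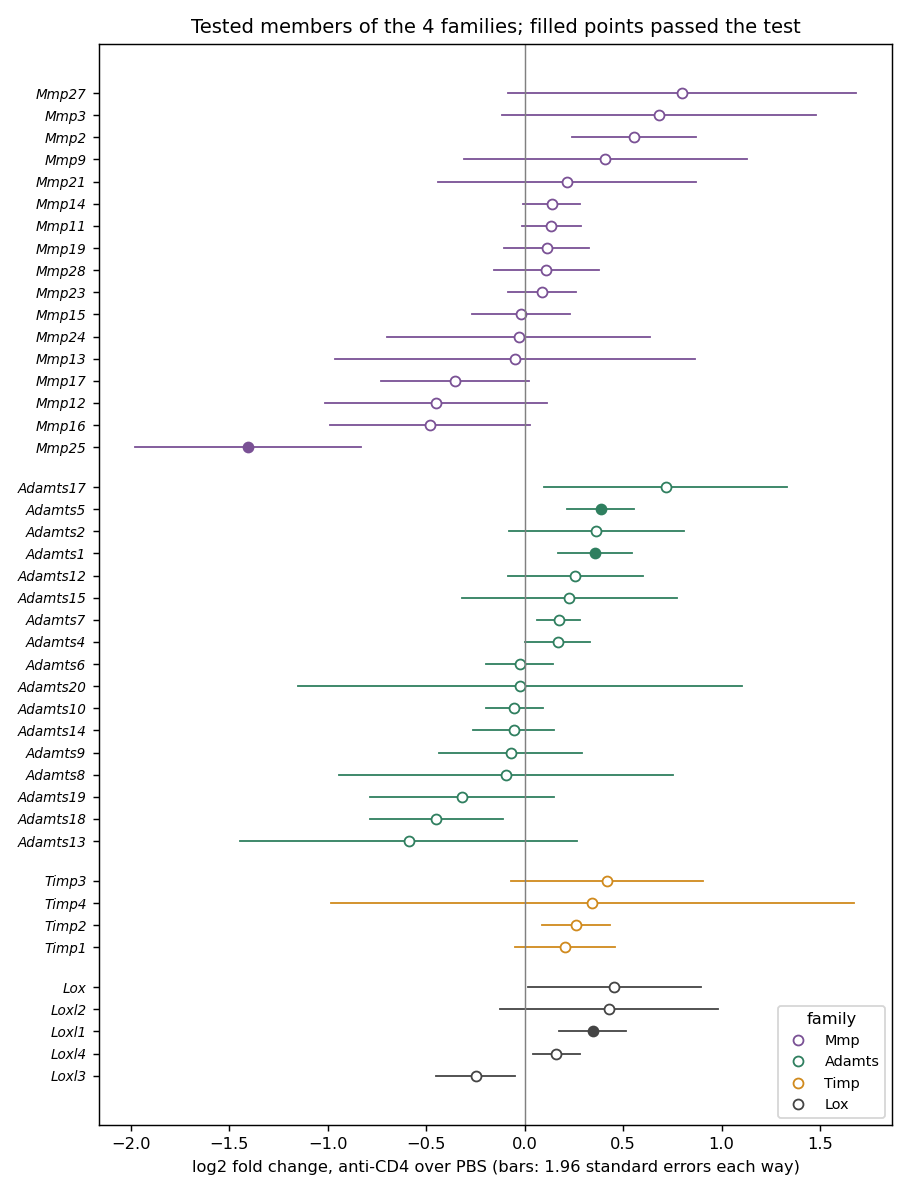
Log2 fold change (anti-CD4 over PBS, edgeR) of the 43 tested members by family, with bars for the approximate confidence interval and filled points for adjusted p under 0.05. Mmp25 lies far to the left at -1.41, and Adamts1, Adamts5 and Loxl1 lie at 0.36, 0.39 and 0.34 with short bars.

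Mmp25 encodes a metalloprotease held at the cell surface by a lipid anchor and known in humans from leukocytes, chiefly neutrophils. It lies on the minus strand at chr17:23628311-23645277 (GRCm38, as for all positions given). It measured 4.90, 4.12, 10.35, 7.46, 2.97 and 2.89 CPM in anti-CD4 tumours 1 to 6, against 11.78, 18.01, 14.98, 12.16, 13.39 and 16.06 CPM in PBS tumours 1 to 6. The groups did not overlap, and anti-CD4 3 and 4 were the highest of the anti-CD4 tumours. The means of 5.45 ± 2.93 CPM in anti-CD4 tumours and 14.4 ± 2.41 CPM in PBS tumours differed by -1.41 on the log2 scale (SE 0.29, edgeR adjusted p = 0.0280). No other gene shares exon bases with Mmp25 in the annotation. The call was lost without anti-CD4 2, 5 or 6 or PBS 2, 3 or 6 (adjusted p 0.0505 to 0.0755), with log2 fold changes of -1.69 to -1.27 over all 12 tumours left out in turn.

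The T cell and neutrophil markers were set beside Mmp25. Of 6 T cell markers, all tested, 2 fell (Cd2 and Cd5), with 5 lower and 0 higher at an unadjusted p under 0.05 (edgeR). The summed level of the 6 ran from 6.29 to 27.8 CPM in anti-CD4 tumours and from 22.9 to 48.3 CPM in PBS tumours. Of 11 neutrophil markers 5 could be tested and 0 were called (edgeR, also 0 higher and 1 lower at an unadjusted p under 0.05), with sums of 9.76 to 31.4 CPM in anti-CD4 tumours and 17.0 to 31.8 CPM in PBS tumours. Csf3r and Cxcr2, receptors of a growth factor and of chemokines, made up most of that sum, and Ly6g, Elane and Ngp averaged under 0.1 CPM in both groups. Within the anti-CD4 tumours the order of Mmp25 was that of the neutrophil sum (Pearson r = 0.985, exact permutation p = 0.00139, Spearman rho = 1.0, exact permutation p = 0.00278, n = 6, two-sided). The order was also the same within the PBS tumours (r = 0.938, exact permutation p = 0.00139, rho = 1.0, exact permutation p = 0.00278, n = 6). With the T cell sum r was 0.790 within anti-CD4 tumours (rho = 0.943) and 0.502 within PBS tumours (rho = 0.543), with exact permutation p of 0.0431 (0.0167 for rho) and 0.308 (0.297 for rho). None of the 768 relations computed within groups passed adjustment. With n = 6, 0.00139 is the smallest exact p that r can give, so no single relation could pass by itself. The adjustment therefore decides nothing about these relations. At nearly the same neutrophil sum, 31.4 CPM in anti-CD4 3 and 31.8 CPM in PBS 2, Mmp25 stood at 10.35 CPM in anti-CD4 3 and 18.01 CPM in PBS 2. The T cell sum was also nearly the same in anti-CD4 4, at 27.77 CPM, and PBS 3, at 27.84 CPM. There Mmp25 stood at 7.46 CPM in anti-CD4 4 and 14.98 CPM in PBS 3. These relations were chosen after values were seen, no pooled r is given because the groups do not overlap in Mmp25, and the part of either cell type in the fall of Mmp25 was not tested.

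**Figure D3:**
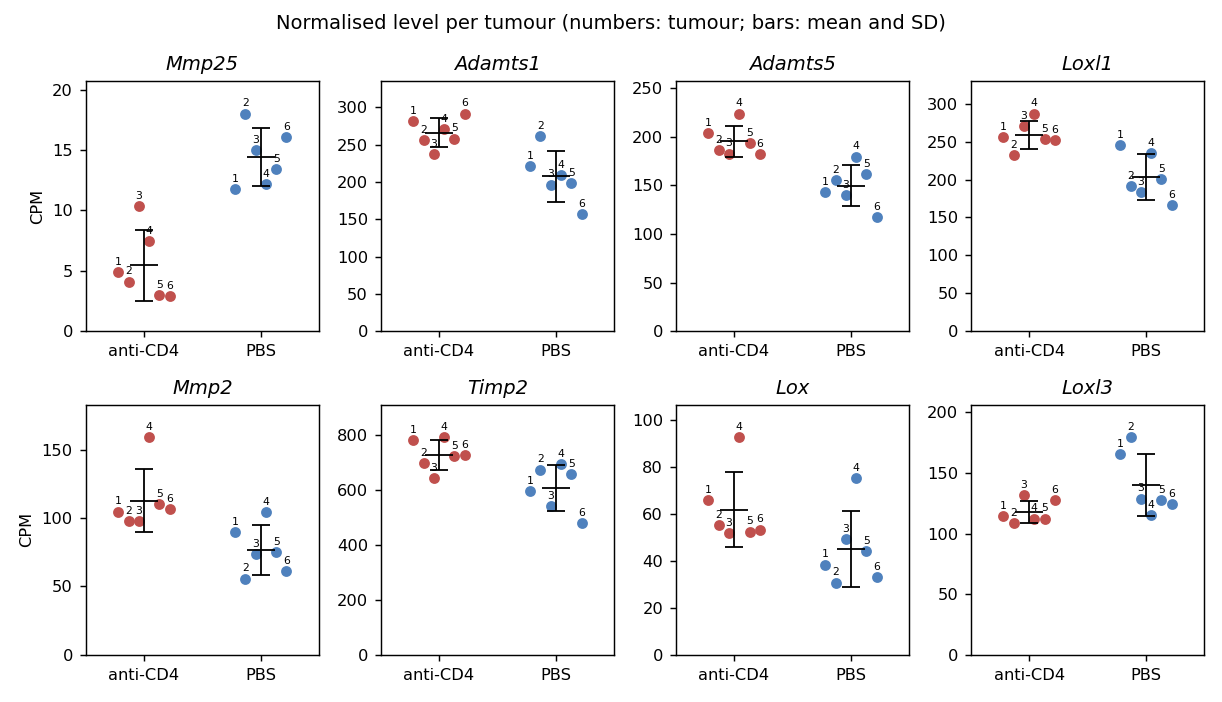
CPM in each tumour (points, numbered as in the labels; y axes from 0) for the 4 called members in the upper row and for Mmp2, Timp2, Lox and Loxl3 in the lower row, anti-CD4 left of PBS, with mean and SD. Only in Mmp25 and Adamts5 do the groups of these 8 genes stand apart with no overlap, and anti-CD4 4 is the high tumour in Mmp2 and Lox.

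The 2 gelatinases, which cut denatured collagen, did not pass. Mmp2 ran from 97.74 through a median of 105.6 to 158.9 CPM in anti-CD4 tumours and from 55.8 through 74.53 to 104.5 CPM in PBS tumours, and its log2 fold change was 0.56 (SE 0.16, edgeR adjusted p = 0.0607). It passed without anti-CD4 1 (adjusted p = 0.0495), PBS 1 (0.0380) or PBS 4 (0.0334), and in DESeq2 and limma voom. Mmp9 ran from 268.1 through 330.2 to 500.2 CPM in anti-CD4 tumours and from 72.56 through 276.9 to 448.0 CPM in PBS tumours. Its log2 fold change was 0.41 with an SE of 0.37 (edgeR adjusted p = 0.480). The low Mmp9 values were those of PBS 4, at 72.56 CPM, and PBS 2, at 163.3 CPM.

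Mmp9 moved with the markers of osteoclasts, the bone-resorbing cells that are known to make it. The summed level of the 6 osteoclast markers, all tested and 0 called (edgeR, 0 also at an unadjusted p under 0.05), ran from 274.9 to 419.9 CPM in anti-CD4 tumours and from 70.0 to 426.2 CPM in PBS tumours. Over 12 tumours r was 0.963 and rho 0.965 (100000 resamples, permutation p = 1e-05 each, the smallest they can give, adjusted p = 0.00384 over 384 relations of 32 members with 12 marker lists). Without the 2 tumours farthest in that sum r was 0.938, and r was 0.958 within anti-CD4 tumours and 0.979 within PBS tumours. Acp5, at 128 CPM in anti-CD4 and 108 CPM in PBS tumours, and Ctsk, at 187 CPM in anti-CD4 and 141 CPM in PBS tumours, made up most of the sum, and macrophages can express both. With the 8 macrophage markers Mmp9 gave r = -0.10 and rho = 0.25 (permutation p = 0.751 and 0.429). Which cells carried Mmp9 was not tested.

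Of the 7 membrane-anchored Mmp genes 1 fell, Mmp25, and 0 rose, and 2 had positive values. Mmp14 ran from 457.7 through 570.2 to 585.4 CPM in anti-CD4 tumours and from 468.8 through 480.8 to 601.3 CPM in PBS tumours (log2 fold change 0.14, SE 0.07, edgeR adjusted p = 0.240). Anti-CD4 3 was the lowest of all 12 tumours in Mmp14 and PBS 1 the highest, so that the groups overlapped. Mmp17, another lipid-anchored member, averaged 2.09 ± 0.603 CPM in anti-CD4 tumours and 2.67 ± 0.365 CPM in PBS tumours (log2 fold change -0.35, edgeR adjusted p = 0.236). Mmp11, or stromelysin 3, which furin activates inside the cell, was among the steadiest members, at 51.9 ± 1.76 CPM in anti-CD4 tumours and 47.2 ± 6.14 CPM in PBS tumours (log2 fold change 0.14, edgeR adjusted p = 0.250). Part of Mmp11 overlaps Chchd10 on the other strand (155 exon bases).

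Of the 23 Mmp genes 10 lie side by side on chromosome 9 from 7272514 to 7699585 in GRCm38, the cluster of collagenases, stromelysins, matrilysin and macrophage elastase. Of these 10, 3 averaged 1 TPM or more (Mmp3, Mmp12 and Mmp27), against 10 of the 13 Mmp genes elsewhere, and the cluster gave 1.67% to 6.08% of the Mmp sum of a tumour. Mmp3, or stromelysin 1, was the highest of the cluster, at 12.3 ± 7.22 CPM in anti-CD4 tumours and 7.68 ± 4.05 CPM in PBS tumours (log2 fold change 0.68, edgeR adjusted p = 0.287). Mmp12, the macrophage elastase, averaged 5.98 ± 2.93 CPM in anti-CD4 tumours and 8.16 ± 2.60 CPM in PBS tumours (log2 fold change -0.45, edgeR adjusted p = 0.318). Mmp13, the main collagenase of rodents, stood at 0.360 ± 0.154 CPM in anti-CD4 tumours and 0.377 ± 0.240 CPM in PBS tumours. Mmp12 shares 157 exon bases with Mmp1b. Mmp3, Mmp12 and Mmp13 are described because they lie in the cluster, after their values were seen.

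The members too low to test were Mmp1a, Mmp1b, Mmp7, Mmp8, Mmp10 and Mmp20, all of this cluster, and Adamts3 and Adamts16. Mmp1a was listed at 0 in all 12 tumours, which allows up to 3 counts per library, or 0.0483 to 0.0976 CPM (counting error only). Counts summed over the 6 tumours of a group were 2 in anti-CD4 and 0 in PBS tumours for Mmp1b, and 0 in anti-CD4 and 2 in PBS tumours for Mmp7. For Mmp8 they were 43 in anti-CD4 and 34 in PBS tumours, for Mmp10 11.03 in anti-CD4 and 17.01 in PBS tumours, and for Mmp20 14 in anti-CD4 and 23 in PBS tumours. For Adamts3 they were 47 in anti-CD4 and 44 in PBS tumours, and for Adamts16 74.1 in anti-CD4 and 59.1 in PBS tumours. In an edgeR fit with no filter 7 of the 8, all but Mmp1a, were fitted and 0 were called (smallest adjusted p 0.352, 0 at an unadjusted p under 0.05). DESeq2 gave 1 of the 7 an adjusted p, and 0 were called.

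The remaining tested members were not called, and the following are named after their values were seen. Mmp19, a secreted protease found in many tissues, averaged 38.3 ± 6.29 CPM in anti-CD4 tumours and 35.5 ± 4.83 CPM in PBS tumours, and 789 of its exon bases overlap Tmem198b. Mmp16, a membrane-bound relative of Mmp14, averaged 0.799 ± 0.225 CPM in anti-CD4 tumours and 1.11 ± 0.372 CPM in PBS tumours (log2 fold change -0.48, edgeR adjusted p = 0.236). Adamts2, the procollagen proteinase whose loss causes fragile skin, averaged 70.0 ± 26.0 CPM in anti-CD4 tumours and 54.5 ± 12.2 CPM in PBS tumours (log2 fold change 0.36, edgeR adjusted p = 0.308). Adamts17 averaged 0.729 ± 0.323 CPM in anti-CD4 tumours and 0.444 ± 0.126 CPM in PBS tumours (log2 fold change 0.72, edgeR adjusted p = 0.156). Adamts18 averaged 1.81 ± 0.309 CPM in anti-CD4 tumours and 2.47 ± 0.495 CPM in PBS tumours, with 4 of 6 anti-CD4 tumours below every PBS tumour (log2 fold change -0.45, edgeR adjusted p = 0.116). Among the 11 tested members under 1 TPM 3 had positive values, and 0 were called (edgeR, 1 higher and 1 lower at an unadjusted p under 0.05, and 1 called by limma voom).

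The promoters of the cluster were compared with those of the other members because its genes were low together. RefSeq promoters (250 bases before the start site, GRCm38.p6) were on hand for 33 of the 51 members, 36 promoters in all. The AP-1 motif TGANTCA, read on both strands, lay in 8 of the 36 (22.2%), against 6.75% of 32851 promoters of the same length, and all 8 belonged to the cluster, 1 for each of 8 of its 10 genes (not Mmp8 or Mmp27). The TATA motif TATAAA lay in 25.0% of the member promoters and 12.4% of all, and the GC box GGGCGG in 47.2% and 32.7%. Outside the cluster the TATA motif lay only in Mmp21 and Adamts1, and GC boxes lay only outside the cluster. Every cluster gene was among the 33 members with a promoter on hand, so the cluster weighs more in these shares than among all 51. No motif overlapped another in the letters printed, where capitals mark the AP-1 and TATA motifs in Mmp3, a cluster gene, and the GC boxes (on either strand) and TATA motif in Adamts1 and Mmp25, which were called.
Mmp3 (chr9:7445572-7445821, plus strand): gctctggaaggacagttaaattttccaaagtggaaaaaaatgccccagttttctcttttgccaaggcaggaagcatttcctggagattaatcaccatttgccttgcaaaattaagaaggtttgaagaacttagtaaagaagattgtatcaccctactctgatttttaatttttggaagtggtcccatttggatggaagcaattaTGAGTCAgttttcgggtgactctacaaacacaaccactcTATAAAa
Adamts1 (chr16:85803114-85803363, minus strand): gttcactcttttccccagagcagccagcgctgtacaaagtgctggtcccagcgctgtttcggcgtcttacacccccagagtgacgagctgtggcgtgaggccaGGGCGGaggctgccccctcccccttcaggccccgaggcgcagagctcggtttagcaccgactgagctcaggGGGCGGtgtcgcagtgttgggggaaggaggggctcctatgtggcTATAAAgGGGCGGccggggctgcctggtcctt
Mmp25 (chr17:23645270-23645519, minus strand): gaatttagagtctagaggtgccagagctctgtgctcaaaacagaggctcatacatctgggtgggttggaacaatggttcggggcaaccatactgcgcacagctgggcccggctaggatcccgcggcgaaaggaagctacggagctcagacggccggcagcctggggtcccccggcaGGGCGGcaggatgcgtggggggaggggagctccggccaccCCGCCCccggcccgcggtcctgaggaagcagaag
A match is a run of letters and does not show that a factor binds there.

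Adamts1 and Adamts5, the neighbours on chromosome 16 that cut aggrecan and versican, both rose. Adamts5 lies at chr16:85856173-85901828 and Adamts1 at chr16:85793827-85803113. Adamts5 measured 182.4 to 223.7 CPM with a median of 190.0 CPM in anti-CD4 tumours and 117.1 to 179.6 CPM with a median of 149.5 CPM in PBS tumours. Every anti-CD4 tumour lay above every PBS tumour, the nearest pair being 182.4 CPM in anti-CD4 6 and 179.6 CPM in PBS 4. The means of 195 ± 16.04 CPM in anti-CD4 tumours and 150 ± 21.3 CPM in PBS tumours differed by 0.39 on the log2 scale (SE 0.09, edgeR adjusted p = 0.0323). The call of Adamts5 was lost without anti-CD4 2, 5 or 6 or PBS 2, 3 or 6 (adjusted p 0.0505 to 0.0773).

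Adamts1 ran from 237.2 through 264.6 to 291.7 CPM in anti-CD4 tumours and from 157.3 through 204.2 to 261.8 CPM in PBS tumours. PBS 2, at 261.8 CPM, lay among the anti-CD4 tumours, and the other 5 PBS tumours lay below them all. The means were 266 ± 19.5 CPM in anti-CD4 tumours and 208 ± 34.3 CPM in PBS tumours (log2 fold change 0.36, SE 0.10, edgeR adjusted p = 0.0461). The call of Adamts1 held without anti-CD4 1, anti-CD4 3, PBS 1 or PBS 2 and was lost without any of the other 8 tumours (adjusted p 0.0631 to 0.110).

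The 7 hyalectan-cleaving Adamts genes, of which these 2 rose and 0 fell, summed to 293 ± 25.7 TPM in anti-CD4 tumours and 246 ± 26.4 TPM in PBS tumours. Adamts4, the other main aggrecanase, averaged 37.5 ± 4.38 CPM in anti-CD4 tumours and 33.5 ± 3.44 CPM in PBS tumours (log2 fold change 0.17, edgeR adjusted p = 0.212). Vcan, the gene of the versican that these proteases cut, rose to 875 ± 74.1 CPM in anti-CD4 tumours, against 695 ± 87.6 CPM in PBS tumours (log2 fold change 0.33, SE 0.09, edgeR adjusted p = 0.0430). Acan, the aggrecan gene, was too low to test. Of 12 genes of hyalectans, link proteins, hyaluronan synthases and von Willebrand factor 8 were tested, 1 rose, Vcan, and 0 fell. At an unadjusted p under 0.05 (edgeR) 1 of the 8 was higher and 2 were lower, against 28.0% of all genes in either direction. Hapln1, a link protein, stood next by p at 0.873 ± 0.203 CPM in anti-CD4 tumours and 1.31 ± 0.305 CPM in PBS tumours (edgeR adjusted p = 0.115).

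Adamts7, which with Adamts12 cuts the cartilage protein COMP, was the steadiest member at 1 TPM or more, with a coefficient of variation of 8.13% over the 12 tumours. It averaged 28.9 ± 1.40 CPM in anti-CD4 tumours and 25.6 ± 1.57 CPM in PBS tumours, and 5 of 6 anti-CD4 tumours lay above every PBS tumour (log2 fold change 0.17, SE 0.06, edgeR adjusted p = 0.0727). It passed without PBS 1 (adjusted p = 0.0415), and in DESeq2 and limma voom. Adamts14, a proteinase that removes the N-terminal propeptide of fibrillar procollagens, averaged 48.4 ± 7.64 CPM in anti-CD4 tumours and 50.2 ± 6.60 CPM in PBS tumours (log2 fold change -0.06, edgeR adjusted p = 0.754). The 3 procollagen proteinases Adamts2, Adamts3 and Adamts14 summed to 62.7 ± 17.1 TPM in anti-CD4 tumours and 61.2 ± 11.3 TPM in PBS tumours. The microfibril-associated Adamts6 and Adamts10 summed to 44.7 ± 3.24 TPM in anti-CD4 tumours and 48.8 ± 8.00 TPM in PBS tumours. Adamts13, which cuts von Willebrand factor and is named after its values were seen, stood at 0.272 ± 0.0880 CPM in anti-CD4 tumours and 0.407 ± 0.348 CPM in PBS tumours.

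All 4 Timp genes had positive log2 fold changes and none passed (edgeR). Timp2 ran from 643.1 through 724.6 to 791.7 CPM in anti-CD4 tumours and from 479.1 through 626.6 to 695.1 CPM in PBS tumours, with 5 of 6 anti-CD4 tumours above every PBS tumour. Its log2 fold change was 0.26 (SE 0.09, edgeR adjusted p = 0.0842), and DESeq2 and limma voom called it. Timp1, the inducible inhibitor that binds proMmp9, averaged 33.02 ± 5.74 CPM in anti-CD4 tumours and 28.6 ± 4.48 CPM in PBS tumours (log2 fold change 0.21, edgeR adjusted p = 0.309). Timp3, which is held in the matrix and also blocks ADAMTS aggrecanases, averaged 51.7 ± 20.3 CPM in anti-CD4 tumours and 38.7 ± 12.2 CPM in PBS tumours (log2 fold change 0.42, edgeR adjusted p = 0.284). Timp4 was near the limit of the test, at 0.682 ± 0.812 CPM in anti-CD4 tumours and 0.540 ± 0.316 CPM in PBS tumours (log2 fold change 0.34, SE 0.68, edgeR adjusted p = 0.763). Without anti-CD4 4, at 2.21 CPM, the log2 fold change of Timp4 was -0.55. Timp1, Timp3 and Timp4 lie inside Syn1, Syn3 and Syn2 on the opposite strand, and Timp3 shares 1733 exon bases with Syn3, so counts of these genes are uncertain where the counting did not use strand.

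Among the lysyl oxidases Loxl1, at chr9:58287738-58313186 on the minus strand, rose. It ran from 232.3 through 254.9 to 286.9 CPM in anti-CD4 tumours and from 166.8 through 195.5 to 245.3 CPM in PBS tumours, and 5 of 6 anti-CD4 tumours lay above every PBS tumour. The means were 258 ± 18.5 CPM in anti-CD4 tumours and 204 ± 30.5 CPM in PBS tumours (log2 fold change 0.34, SE 0.09, edgeR adjusted p = 0.0402). The call held without anti-CD4 1, PBS 1 or PBS 4 and was lost without any of the other 9 tumours (adjusted p 0.0583 to 0.0889). Loxl1 made up 58.7 ± 1.31% of the Lox sum in anti-CD4 tumours and 53.4 ± 2.41% in PBS tumours.

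Loxl3, in mice needed for the palate and spine, was the 1 lysyl oxidase with a negative value. It ran from 108.7 through 113.2 to 131.5 CPM in anti-CD4 tumours and from 115.0 through 128.3 to 179.2 CPM in PBS tumours (log2 fold change -0.25, SE 0.10, edgeR adjusted p = 0.135). PBS 1 and PBS 2 were high, at 165.1 and 179.2 CPM, and 535 exon bases overlap Htra2 on the other strand. Lox itself ran from 51.89 through 54.19 to 92.48 CPM in anti-CD4 tumours and from 30.73 through 41.24 to 75.09 CPM in PBS tumours (log2 fold change 0.46, SE 0.22, edgeR adjusted p = 0.206). Loxl2, which acts on basement membrane collagen, averaged 36.9 ± 14.2 CPM in anti-CD4 tumours and 27.5 ± 11.2 CPM in PBS tumours (log2 fold change 0.43, edgeR adjusted p = 0.334). Loxl4 averaged 41.4 ± 1.85 CPM in anti-CD4 tumours and 37.1 ± 3.25 CPM in PBS tumours (log2 fold change 0.16, edgeR adjusted p = 0.113).

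Of 17 genes of lysyl oxidase substrates and of other collagen cross-linking enzymes, all tested, all 17 had positive values (median log2 fold change 0.28), against 49.9% of all genes. Of the 17, 1 rose and 0 fell. At an unadjusted p under 0.05 (edgeR) 10 were higher and 0 lower, against 28.0% of all genes in either direction. Col1a1 and Col1a2 of that list are also fibroblast markers. The gene that rose was Fbln5, which encodes the elastic fibre protein that brings Loxl1 to elastin, at 99.0 ± 9.39 CPM in anti-CD4 tumours and 73.9 ± 6.33 CPM in PBS tumours (log2 fold change 0.42, SE 0.07, edgeR adjusted p = 0.0133). Fn1, or fibronectin, stood next by p at 4331 ± 484 CPM in anti-CD4 tumours and 3361 ± 520 CPM in PBS tumours (edgeR adjusted p = 0.0588). Of 18 genes that activate or restrain proteolysis at the cell surface 15 were tested, 2 rose and 0 fell (edgeR). Of the 15, 5 were higher and 0 lower at an unadjusted p under 0.05 (edgeR), against 28.0% of all genes in either direction. Plat, the tissue plasminogen activator, rose by 0.46 on the log2 scale (edgeR adjusted p = 0.0215), and Cd44, a hyaluronan receptor that can hold Mmp9 at the surface, by 0.22 (0.0430).

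Of the 4 tested tolloid and enhancer genes 0 were called (edgeR, 1 higher at an unadjusted p under 0.05), with Pcolce2 at 0.65 (adjusted p = 0.157) and Pcolce at 0.11 (0.467) on the log2 scale. Of the 7 ADAMTS-like genes, which have no protease domain, 0 were called (edgeR, 0 also at an unadjusted p under 0.05), with Adamtsl1 at 0.80 (adjusted p = 0.230) and Adamtsl2 at -0.29 (0.246). Of 11 tested ADAM sheddases 0 were called (edgeR, 2 higher and 1 lower at an unadjusted p under 0.05), with Adam33 at -0.56 (adjusted p = 0.0687) and Adam10 at 0.18 (0.0849). Of 13 tested cathepsins 1 fell, Ctsw, a cathepsin of cytotoxic lymphocytes, by 0.996 on the log2 scale (edgeR adjusted p = 0.0369), and 0 rose. At an unadjusted p under 0.05 (edgeR) 5 cathepsins were lower and 0 higher, against 28.0% of all genes in either direction. Ctss, the cathepsin S of antigen-presenting cells, stood next at -0.77 (adjusted p = 0.0638).

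Some tumours were high or low in many members. Anti-CD4 4 was the highest of the 12 tumours for 18 of the 43 tested members, where it was so for 10.6% of all genes, and PBS 6 was the lowest for 14, where it was so for 15.4% of all genes. Within the PBS group PBS 4 was the highest for 19 members, against 19.9% of all genes. Among members at 1 TPM or more, Mmp27 (69.6%), Mmp3 (60.8%) and Mmp25 (53.7%) had the largest coefficients of variation over the 12 tumours. Anti-CD4 4 also had the highest summed fibroblast markers, at 15830 CPM, skeletal muscle markers, at 1098 CPM, and adipocyte markers, at 166.3 CPM, and PBS 6 had the lowest fibroblast sum, at 7220 CPM.

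**Figure D4:**
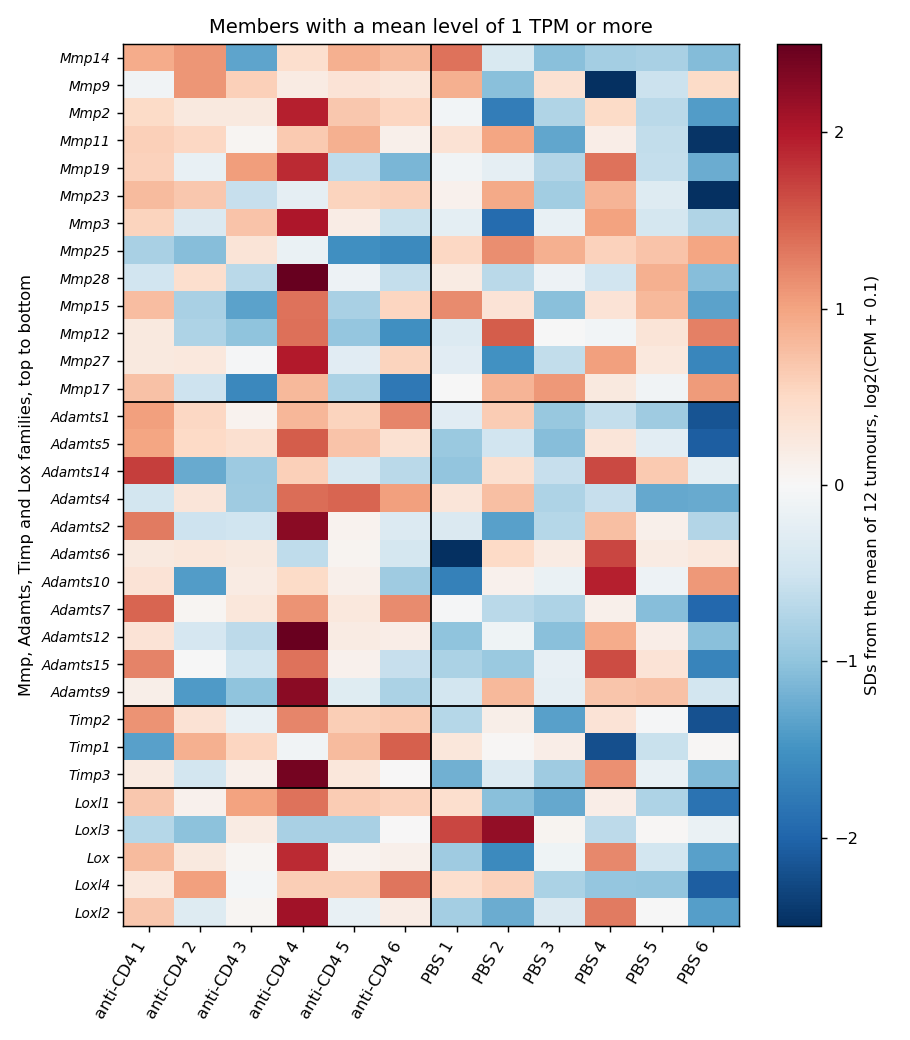
The 32 members at 1 TPM or more (rows, by family) in the 12 tumours (columns, anti-CD4 left of the black line and PBS right of it), coloured by the number of SDs from the mean over 12 tumours of log2(CPM + 0.1). The column of anti-CD4 4 is red in most rows, PBS 6 is blue in most Adamts, Timp and Lox rows, and the Mmp25 and Loxl3 rows run against their neighbours.

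Many members moved with the fibroblast markers. Of 8 fibroblast markers, all tested, 2 rose (Pdgfra and Lum) and 0 fell, with 5 higher and 1 lower at an unadjusted p under 0.05. The lower one, Thy1, averaged 62.2 CPM in anti-CD4 tumours and 102.6 CPM in PBS tumours (log2 fold change -0.72, edgeR adjusted p = 0.0950). The sum of the 8, mostly Col1a1 and Col1a2, ran from 11300 to 15830 CPM in anti-CD4 tumours and from 7220 to 13090 CPM in PBS tumours. The sum was positively correlated with 25 of the 32 members, of which 12 passed by Pearson's r and 5 by both r and rho (adjusted p under 0.05 over 384 relations, permutation). Loxl1 gave r = 0.889 and rho = 0.846 (adjusted permutation p = 0.00384 and 0.0408), 0.796 without the 2 tumours farthest in the sum, 0.757 within anti-CD4 tumours and 0.924 within PBS tumours. Mmp2 gave r = 0.884 and rho = 0.895 (adjusted permutation p = 0.0205 and 0.0307), 0.783 without the farthest 2 tumours, 0.913 within anti-CD4 tumours and 0.786 within PBS tumours. Adamts1 gave r = 0.703 and rho = 0.671 (adjusted permutation p = 0.0848 and 0.171), 0.469 without the farthest 2 tumours, 0.394 within anti-CD4 tumours and 0.579 within PBS tumours. For Adamts5, whose groups do not overlap, r was 0.958 and rho 0.6 within anti-CD4 tumours (exact permutation p = 0.0167 and 0.242, n = 6) and 0.846 and 0.829 within PBS tumours (exact permutation p = 0.0403 and 0.0583, n = 6). None of these passed adjustment over the 768 relations, which no single relation of 6 tumours could pass by itself. The pooled relation of Adamts5 is among the 12 counted. Over all lists 27 of the 384 relations passed by r and 7 by both r and rho, among them the pooled relation of Mmp25 with the T cell sum. These permutations mixed the 2 groups, so a difference between the groups alone can make a pooled relation pass. Loxl3 gave r = -0.27 and rho = -0.45 (adjusted permutation p = 0.672 and 0.445). With the 8 macrophage markers, of which 0 were called (edgeR, 3 lower at an unadjusted p under 0.05) and which summed to 931.9 to 1160 CPM in anti-CD4 tumours and 913.3 to 1951 CPM in PBS tumours, Loxl3 gave r = 0.903 and rho = 0.580 (adjusted permutation p = 0.0340 and 0.269). Without the 2 tumours farthest in that sum this r was 0.373, so that it rests on those tumours. The part of fibroblast content in the rise of Loxl1, Adamts1 and Adamts5 was not tested, and these relations were chosen after values were seen.

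**Figure D5:**
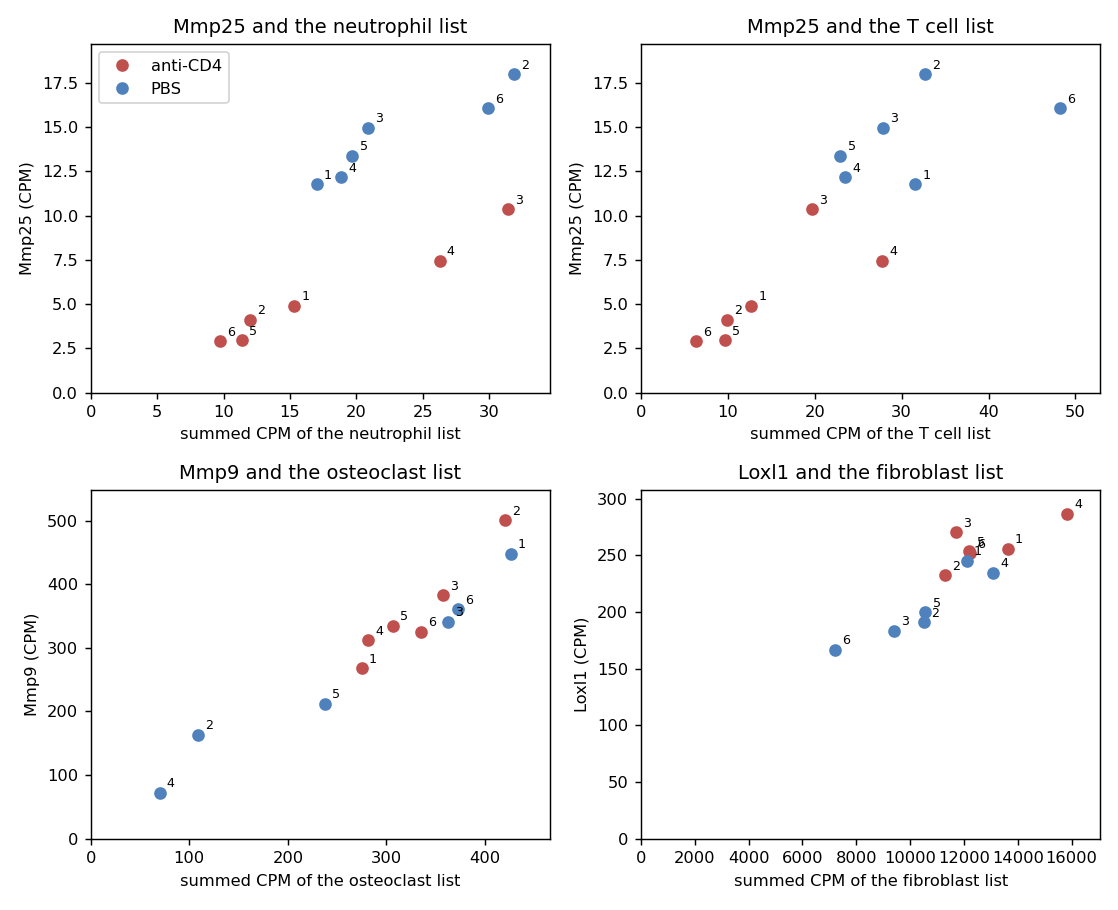
CPM of a member (y axis) against the summed CPM of a marker list (x axis), both linear from 0, with numbered points for the 12 tumours. Mmp25 rises with the neutrophil sum within each group, with the anti-CD4 tumours lower at a like sum. The T cell panel plots the same gene, with r of 0.790 and 0.502 within anti-CD4 and PBS tumours. There anti-CD4 4 lies below PBS 3 at a like sum. The part of either cell type in the fall of Mmp25 was not tested. Mmp9 (osteoclast list) and Loxl1 (fibroblast list) follow their sums across both groups.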

How the data were processed

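The authors deposited 1 table of estimated counts per gene symbol for the 12 tumours. Per the labels' protocols, RNA depleted of ribosomal and globin RNA was read in 100-base pairs, and per the submitters' processing notes bcl2fastq 2.20.0.422, kallisto and the build GRCm38.p6 were used. The sources used here give no annotation release or strand setting, and kallisto divides reads among similar transcripts, so overlapping genes are uncertain. Of the deposited estimated counts of a tumour, over all 35999 symbols, 35.7% to 37.9% lay more than 1e-06 from a whole number. After rounding, filterByExpr and TMM scaling, 17940 genes went into the quasi-likelihood F test of edgeR 4.0.16 (R 4.3.3), with group as the only term. Calls were made at adjusted p under 0.05 (Benjamini-Hochberg), and gene p-values are from edgeR where no other tool is named. SE is approximate, the log2 fold change divided by the root of F. The biological coefficient of variation was 0.193.

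All 51 members matched GENCODE M21 by symbol, as did 35903 of the 35999 symbols, and 26 symbols that a spreadsheet had turned into dates carried 0.227% of the counts. Tumours were grouped by their titles. No 2 libraries of a group were copies, as the chi-square of their counts over its degrees of freedom was 8.01 to 61.1 in 30 pairs. Named members were the called ones, the 4 with the highest level and the 3 with the smallest p in each family, and all Timp and Lox genes. From the related lists the called genes and the 2 with the smallest p were named. Members, roles, lists and tests were chosen with earlier results of these data known. Marker sums were related to members by permutation over all 12 tumours without regard to group, and by exact permutation within each group. The fit was tested on simulated counts, where it recovered 64.2% of genes changed 1.5-fold and 89.6% of genes changed 2-fold. Smaller changes were not simulated. Alternatives were RLE and upper quartile scaling, 2 other filters, a replicate block, the library total as a covariate, DESeq2 1.42.0, limma 3.58.1 voom with sample weights, tumours left out, and another gene length. No set test was run.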

Additional observations from a re-analysis of the deposited data

Results flagged for a closer look

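In 8 of 40 group and gene pairs (20 named members in 2 groups) 1 tumour stood apart from the other 5 by Dixon's criterion, where chance gives about 1 in 20. Anti-CD4 4 was high in Mmp2, at 158.9 CPM against 97.74 to 110.4 CPM in the other anti-CD4 tumours, in Timp3, at 92.44 CPM against 36.91 to 47.07 CPM, in Lox, at 92.48 CPM against 51.89 to 65.72 CPM, and in Loxl2, at 64.72 CPM against 26.92 to 38.52 CPM. Anti-CD4 3 was low in Mmp14, at 457.7 CPM against 545.9 to 585.4 CPM. In the PBS group PBS 1 was high in Mmp14, at 601.3 CPM against 468.8 to 503.4 CPM, PBS 4 in Timp3, at 61.71 CPM against 29.19 to 40.51 CPM, and PBS 5 in Timp4, at 1.162 CPM against 0.310 to 0.538 CPM. None of the 4 called members was among them.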

How the results depend on the processing

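Members higher and lower numbered 3 and 1, among 529 and 418 genes. Under upper quartile scaling they were 0 and 1 (179 genes higher), with no filter 2 and 1 (272 and 251 genes), in DESeq2 6 and 1 (1345 and 1180), and in limma voom 10 and 4 (2848 and 3200). With the library total as a covariate 0 and 0 members were called among 0 and 5 genes (2193 at an unadjusted p under 0.05). With the replicate block 2 members rose (Mmp2 and Adamts5) and 0 fell, among 19 and 14 genes. The labels do not say whether equal replicate numbers pair the tumours. Of 6 same-numbered pairs 2 correlated over 0.1, and 0 of 6 best with their own number, which cannot settle whether they are paired. Without anti-CD4 3 and 4 together 1 member rose and 1 fell, with 705 genes lower. Leaving out 1 tumour gave 0 to 5 members higher and 0 to 1 lower, and 29 to 1160 genes higher and 31 to 1480 lower. RLE scaling and a stricter filter left the members at 3 and 1. Of the 43 tested members 15 turned direction under 1 or more alternatives, none of them among the 4 called ones. Of the 20 named members 3 did so, none called under any alternative: Adamts14 (0.10 with the covariate, and -0.13 to 0.0086 with 1 tumour left out, positive without PBS 4), Timp1 (-0.046 with the covariate) and Timp4 (-0.27 with the block, -0.92 in voom, -0.49 without both of anti-CD4 3 and 4, and -0.55 to 0.70 with 1 tumour left out, negative without anti-CD4 4). The cause of these changes was not tested. With the longest coding transcript as gene length, summed levels in anti-CD4 and PBS tumours were 1038 and 929 TPM for Mmp, 368.5 and 332.8 TPM for Adamts, 671.0 and 593.8 TPM for Timp and 379.7 and 349.6 TPM for Lox. Of the 8 members that the filter left out, 7 were fitted with no filter and 0 called.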
